A study of Arabidopsis thaliana with 12 samples.

Results

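The genes described here make, inactivate and perceive the plant hormone auxin, and 83 of the 36101 loci in the deposited tables belonged to them. A locus was taken when 1 of its gene symbols was a numbered IAA, ARF, GH3, YUC, AFB, TAR, ILL or ILR, or one of a few alternative names (*AXR2*, *AXR3*, *SHY2*, *MP*, *BDL*, *TIR1*, *TAA1*, *WES1* and *DFL1*), so the choice rested on names and not on levels. By role, 14 loci held genes of auxin synthesis, 7 of conjugation to amino acids, 6 of conjugate hydrolysis, 5 held receptors, 26 Aux/IAA repressors and 21 auxin response factors. The other 4 carry a matching symbol but are not auxin genes of these kinds (*ARF1* at AT1G23490, *ARF3* at AT2G24765, *ILR2* and *ILR3*), and they are described apart.

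The transcripts were measured by RNA sequencing of whole *Arabidopsis thaliana* seedlings, all in the Columbia-0 ecotype, with an age of 2 weeks and 3 days on the label. The wild type (Col-0) and the *ali1* mutant, 1 T-DNA line (N560407) with an insertion in At5g14470, were compared. Seedlings of each genotype received 6 µM oxo-C14-HSL, a bacterial N-acyl homoserine lactone with a long acyl chain, or its solvent acetone for 3 days. All 4 groups were then challenged for 2 h with 100 nM flg22, a peptide of bacterial flagellin that plants recognise as a sign of bacteria, so no group without flg22 stands beside them. Each group held 3 libraries, 12 in all, and the comparison asks what the pretreatment did to the transcripts after flg22 in each genotype.

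Auxin (indole-3-acetic acid) is made from tryptophan, which TAA1 and the TAR enzymes turn into indole-3-pyruvate and the YUC flavin monooxygenases turn into auxin. GH3 enzymes join auxin to amino acids, and ILR1 and the ILL amidohydrolases split such conjugates. In the nucleus auxin joins the F-box receptors TIR1 and AFB to the Aux/IAA repressors, which are then degraded, and the auxin response factors (ARF) that they held are set free to act on their target genes. Several Aux/IAA and GH3 genes are themselves early targets of auxin, and for this reason their transcripts are often used to follow the response.

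The tables gave 1 value per group for each locus, in FPKM (fragments mapped to a transcript, scaled to its length and to the size of the library), and no value per library. The values therefore give no spread between replicates and no depth. No test was made from them, the authors' own test columns were not used, and every difference below is a description of group values that may lie within replicate error. Differences are given as log2 of the ratio of FPKM after 0.1 FPKM had been added to both values, always oxo-C14-HSL over acetone unless another order is named. They were read for loci with a mean of at least 1 FPKM over the 4 groups, which held for 52 of the 83 members and for 16846 loci in all. Values under different genotype labels come from separate runs of the authors' software. The labels themselves were not free of doubt. *ALI1*, the gene that carries the insertion, was at 14.98 FPKM (acetone) and 11.07 FPKM (oxo-C14-HSL) under the Col-0 label and at 27.44 and 30.14 FPKM under the *ali1* label, the higher values lying under the mutant label. In addition, the description given with each sample names the table of the other genotype. The groups are therefore called by their labels throughout. In whole seedlings, fewer cells of a type and less RNA per cell cannot be told apart.

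Under the Col-0 label, the members at least 1.5-fold higher after oxo-C14-HSL were led by *GH3.3*. They came from synthesis, conjugation, the Aux/IAA repressors and the auxin response factors. Transcripts of conjugate hydrolysis and of the 5 receptors, as picked by symbol, stayed close to their acetone level. Of the 52 members, 1 was at least 2-fold higher after oxo-C14-HSL, against 1.61% of all loci, and 0 were at least 2-fold lower, against 0.374%. At a fold of 1.5, 8 members were higher (15.4%), against 6.39% of all loci, and 0 were lower, against 1.68%. These 8 were *GH3.3*, *IAA11*, *IAA19*, *MP*, *IAA1*, *SHY2*, *TAA1* and *ARF18*. Under the *ali1* label, 0 members were at least 2-fold higher or lower, against 0.321% and 0.528% of all loci. At a fold of 1.5, 1 member (*YUC5*) was higher there, against 0.991% of all loci, and 0 were lower, against 2.12%. The median difference of the members was 0.10 under the Col-0 label, with 33 of 52 members above 0 (63.5%), and that of all loci was -0.02, with 46.8% above 0. Under the *ali1* label the members' median was 0.01, with 28 of 52 above 0 (53.8%), beside 0.01 for all loci, with 53.2% above 0. Under both labels 20 members were above 0, a count not made for all loci.

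**Figure D1:**
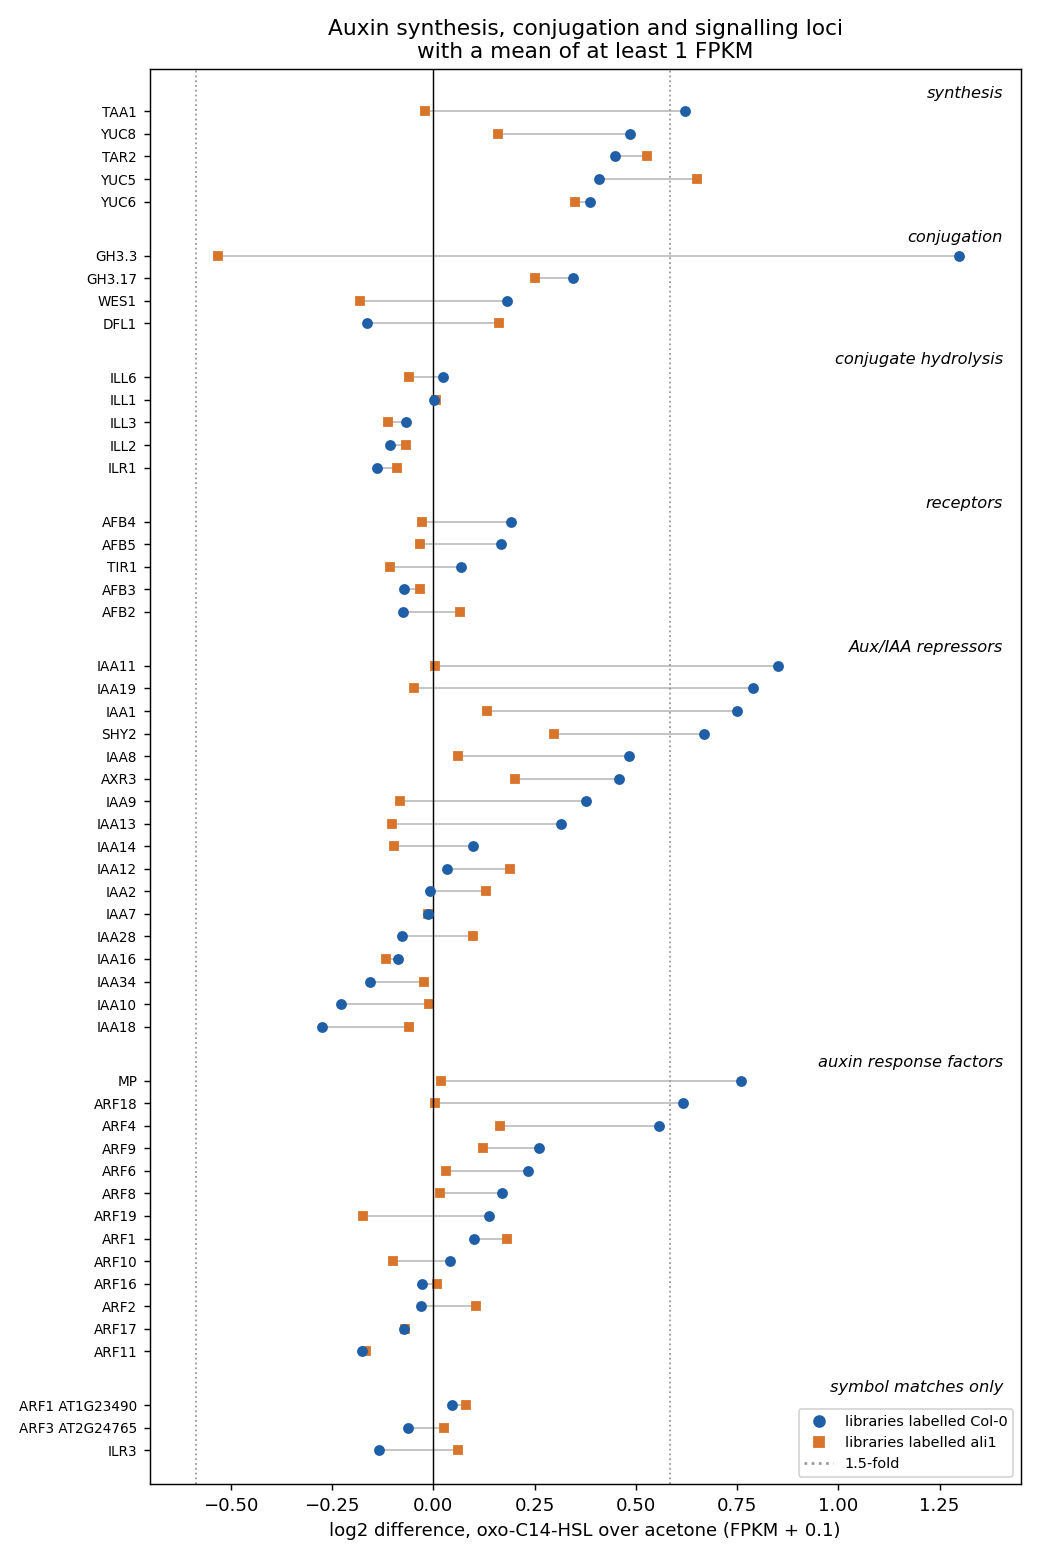
Log2 difference in FPKM, oxo-C14-HSL over acetone, for the 52 loci with a mean of at least 1 FPKM, grouped by role (circles, libraries labelled Col-0; squares, libraries labelled *ali1*; dotted lines, 1.5-fold). Each symbol is a ratio of 2 group values without replicate error. Circles past the right dotted line are the 8 loci at least 1.5-fold higher under the Col-0 label, the farthest being *GH3.3* at 1.30, and the square past it is *YUC5* at 0.65.

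Among the synthesis genes, 5 of 14 passed the limit of 1 FPKM, all with a mean below 5 FPKM. All 5 were higher after oxo-C14-HSL under the Col-0 label, by 0.39 to 0.62 on the log2 scale. Of all loci with a mean from 1 to 5 FPKM, 68.1% were also above 0 under that label, with a median of 0.17. *TAA1* (AT1G70560, chr1:26604855-26607652 in TAIR10.1, plus strand), the tryptophan aminotransferase of the first step, was at 2.15 FPKM in the acetone and 3.36 FPKM in the oxo-C14-HSL group labelled Col-0, and at 2.62 and 2.58 FPKM in those labelled *ali1*. Its ratio was 1.56-fold under the Col-0 label, while the *ali1* groups lay within 0.02 of each other on the log2 scale. *YUC5* (AT5G43890, chr5:17648576-17650375, minus strand), a flavin monooxygenase of the second step, was at 4.09 and 5.47 FPKM under the Col-0 label and at 3.61 and 5.74 FPKM under the *ali1* label. It was the most abundant member of this role and was higher after oxo-C14-HSL under both labels, 1.34-fold and 1.59-fold. *YUC8*, which acts at the same step, was at 1.81 and 2.57 FPKM (Col-0 label) and at 2.38 and 2.67 FPKM (*ali1* label). *TAR2* and *YUC6*, with means of 1.80 and 1.14 FPKM, were higher after oxo-C14-HSL by 0.45 and 0.39 under the Col-0 label and by 0.53 and 0.35 under the *ali1* label. Summed over all 14 genes, synthesis transcripts came to 11.6 and 16.7 FPKM under the Col-0 label and to 12.6 and 15.7 FPKM under the *ali1* label, the lowest sum of the roles that hold auxin genes.

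The conjugation genes had the widest range of differences of the roles under the Col-0 label, from -0.16 to 1.30. *GH3.3* (AT2G23170, chr2:9863855-9866562, minus strand), an auxin-amido synthetase and an early auxin target, was at 4.47 FPKM (acetone) and 11.14 FPKM (oxo-C14-HSL) under the Col-0 label, and at 8.64 and 5.94 FPKM under the *ali1* label. The order of the pretreatments was thus opposite under the labels, 2.49-fold higher after oxo-C14-HSL with the Col-0 label and lower by 0.53 on the log2 scale with the *ali1* label. The log2 differences lay 1.83 apart, and *GH3.3* was the 1 member of 52 for which they lay at least 1 apart, against 3.78% of all loci. Its acetone level also differed between labels, so that part of this distance lies in the control groups. *WES1* (*GH3.5*) was the most abundant of the family, with 26.37 and 29.93 FPKM under the Col-0 label and 29.02 and 25.59 FPKM under the *ali1* label. *DFL1* (*GH3.6*) had 18.22 and 16.27 FPKM and then 17.31 and 19.39 FPKM in the same order of groups. Both also conjugate auxin, and their differences, 0.18 and -0.18 for *WES1* and -0.16 and 0.16 for *DFL1*, were small and turned sign between labels. *GH3.17*, which makes the glutamate conjugate, was at 6.53 and 8.31 FPKM (Col-0 label) and at 7.62 and 9.08 FPKM (*ali1* label), higher after oxo-C14-HSL under both. The sum of all 7 genes was 56.3 and 66.6 FPKM under the Col-0 label and 63.4 and 60.7 FPKM under the *ali1* label, with a log2 difference of 0.24 and -0.06.

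The hydrolases of auxin conjugates picked by symbol were level between the pretreatments. *IAR3*, a hydrolase that releases auxin and is not among them, had log2 differences of 0.24 (Col-0 label) and -0.28 (*ali1* label). Of 6 genes, 5 passed the limit, and their log2 differences lay between -0.14 and 0.02 under the Col-0 label and between -0.11 and 0.01 under the *ali1* label. *ILL1* was at 18.28 and 18.30 FPKM (Col-0 label) and at 16.76 and 16.83 FPKM (*ali1* label). *ILL6*, an amidohydrolase known to act on a jasmonate conjugate, was at 15.95 and 16.22 FPKM and at 19.21 and 18.41 FPKM. The locus of *ILL3* was at 22.07 and 21.05 FPKM and at 22.14 and 20.47 FPKM, but it also holds the neighbouring gene AT5G54130, so the share of *ILL3* in these values is unknown. *ILL2* and *ILR1* had means of 9.91 and 9.73 FPKM.

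The 5 receptors picked by symbol were level as well, while *GRH1* (*AFB1*), filed under another name and not among them, was not (0.89 and 2.12 FPKM under the Col-0 label). All 5 passed the limit, with log2 differences from -0.07 to 0.19 under the Col-0 label and from -0.11 to 0.07 under the *ali1* label. *TIR1*, which gave the receptor family its name, was at 16.59 and 17.41 FPKM (Col-0 label) and at 16.56 and 15.37 FPKM (*ali1* label). *AFB2* was the most abundant, at 22.50 and 21.36 FPKM and at 23.53 and 24.63 FPKM, followed by *AFB3* at 19.18 and 18.23 FPKM and at 18.80 and 18.39 FPKM. *AFB5* and *AFB4*, which also bind synthetic picolinate auxins, had means of 11.9 and 5.03 FPKM. The sum over the receptors stayed between 73.6 and 76.5 FPKM in the 4 groups.

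The Aux/IAA repressors formed the most abundant group of auxin genes, with a summed level of 462 and 497 FPKM under the Col-0 label and 427 and 439 FPKM under the *ali1* label, and 17 of 26 passed the limit. *IAA2* had the highest level of them in every group, with 168.66 and 167.58 FPKM (Col-0 label) and 143.43 and 156.92 FPKM (*ali1* label). *IAA9* followed with 55.00 and 71.46 FPKM and with 62.84 and 59.37 FPKM, and *IAA16* with 47.03 and 44.30 FPKM and with 40.56 and 37.38 FPKM. Among these most abundant repressors, *IAA9* was higher after oxo-C14-HSL under the Col-0 label, by 0.38, and the other two were within 0.09 of their acetone level there.

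The repressors that were at least 1.5-fold higher after oxo-C14-HSL under the Col-0 label, 4 of 17, were less abundant. *IAA19* (AT3G15540, chr3:5264001-5265695, plus strand), a repressor known for its part in phototropic and gravitropic bending, was at 8.26 FPKM (acetone) and 14.37 FPKM (oxo-C14-HSL) under the Col-0 label, and at 9.25 and 8.94 FPKM under the *ali1* label. *IAA1* (AT4G14560, chr4:8360996-8362033, plus strand), an early auxin-induced gene, was at 8.51 and 14.36 FPKM and at 8.21 and 9.01 FPKM. For both, 1 group, oxo-C14-HSL under the Col-0 label, stood above 3 groups that lay close together, and the ratio was 1.74-fold for *IAA19* and 1.69-fold for *IAA1*. *IAA11* (AT4G28640, chr4:14142063-14143969, plus strand) was also highest in that group, at a low level, with 1.59 and 2.96 FPKM under the Col-0 label and 1.96 FPKM in both groups under the *ali1* label. *SHY2* (*IAA3*; AT1G04240, chr1:1128149-1129689, minus strand), a repressor known for setting the size of the root meristem, was at 2.56 and 4.13 FPKM and at 3.31 and 4.08 FPKM. Its differences were 0.67 and 0.30, the latter the highest of these 4 repressors under the *ali1* label. *AXR3* (*IAA17*) was at 9.41 and 12.95 FPKM and at 8.79 and 10.12 FPKM, higher by 0.46 and 0.20. *IAA7* and *IAA12*, the genes known from the mutants *axr2* and *bodenlos*, are listed in the table under their numbers. Their log2 differences were -0.01 and 0.03 under the Col-0 label and -0.01 and 0.19 under the *ali1* label. Over all 17 repressors the differences ran from -0.27 (*IAA18*) to 0.85 (*IAA11*) under the Col-0 label and from -0.12 to 0.30 under the *ali1* label. Under the Col-0 label 10 were above 0, against 46.8% of all loci, and under the *ali1* label 8, against 53.2%.

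**Figure D2:**
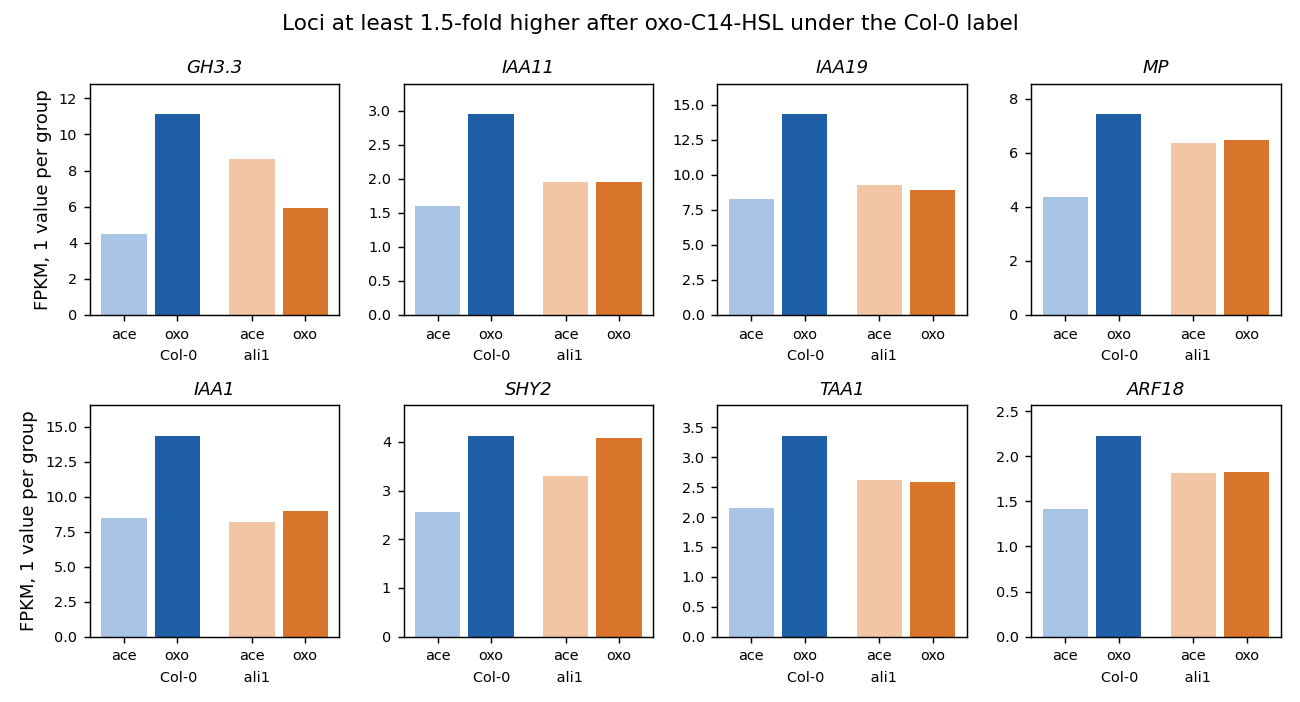
FPKM of the 8 loci that were at least 1.5-fold higher after oxo-C14-HSL under the Col-0 label, in the acetone (ace) and oxo-C14-HSL (oxo) groups of each genotype label. Each bar is the authors' single value for a group of 3 libraries, so no error bar can be drawn, and each panel has its own axis from 0. *GH3.3* was at 4.47 and 11.14 FPKM under the Col-0 label and stood at 8.64 and 5.94 FPKM under the *ali1* label.

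The regions upstream of the members were read for the auxin response element, the motif to which auxin response factors bind, in 2 forms, TGTCTC and the stronger binding TGTCGG. The search covered the 300 bases before the annotated start in TAIR10.1 on both strands, and as the forms differ in their last bases no match was counted under both. TGTCTC was found in 13.0% of 27443 protein-coding genes, in 11 of 49 auxin members above 1 FPKM, and in 4 of the 8 members that were at least 1.5-fold higher under the Col-0 label. TGTCGG was found in 4.91% of all genes, in 5 of 49 members and in 1 of these 8. The 4 promoters with a motif are shown because they belong to a conjugation gene and to repressors that were among the highest in the Col-0 comparison, with the motif in capitals (GAGACA and CCGACA are the same motifs read from the other strand). They are chr2:9866563-9866862 (minus strand) for *GH3.3*, chr3:5263701-5264000 (plus strand) for *IAA19*, chr4:8360696-8360995 (plus strand) for *IAA1* and chr1:1129690-1129989 (minus strand) for *SHY2*, each written 5′ to 3′ towards the gene.
GH3.3: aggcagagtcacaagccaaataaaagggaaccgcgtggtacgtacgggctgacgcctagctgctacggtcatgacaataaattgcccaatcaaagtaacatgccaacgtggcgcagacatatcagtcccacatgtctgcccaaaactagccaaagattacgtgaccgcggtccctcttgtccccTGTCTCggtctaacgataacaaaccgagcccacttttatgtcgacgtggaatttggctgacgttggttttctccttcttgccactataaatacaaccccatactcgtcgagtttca
IAA19: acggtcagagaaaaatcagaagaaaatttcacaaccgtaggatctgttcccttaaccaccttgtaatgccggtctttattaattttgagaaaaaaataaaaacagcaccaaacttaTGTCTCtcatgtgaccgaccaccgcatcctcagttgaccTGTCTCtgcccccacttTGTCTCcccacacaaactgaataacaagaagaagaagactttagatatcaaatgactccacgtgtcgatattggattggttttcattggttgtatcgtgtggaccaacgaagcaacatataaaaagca
IAA1: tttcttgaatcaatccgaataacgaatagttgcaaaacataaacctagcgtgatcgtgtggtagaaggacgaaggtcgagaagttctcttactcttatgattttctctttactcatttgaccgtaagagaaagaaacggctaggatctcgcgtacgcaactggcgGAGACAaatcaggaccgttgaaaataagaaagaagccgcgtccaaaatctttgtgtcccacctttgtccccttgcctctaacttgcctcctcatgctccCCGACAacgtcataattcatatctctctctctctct
SHY2: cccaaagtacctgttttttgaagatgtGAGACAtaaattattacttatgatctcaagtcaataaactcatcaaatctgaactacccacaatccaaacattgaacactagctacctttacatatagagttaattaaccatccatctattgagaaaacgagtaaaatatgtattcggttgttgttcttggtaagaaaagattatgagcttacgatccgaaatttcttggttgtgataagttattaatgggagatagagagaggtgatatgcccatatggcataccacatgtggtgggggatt

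*IAA19* carries TGTCTC 3 times, at 184, 145 and 128 bases before the start. *GH3.3* carries it once at 116 bases, *SHY2* once at 273 bases, and *IAA1* has TGTCTC at 135 and TGTCGG at 36 bases. The motif was not confined to these members. *WES1*, *ILL6*, *AFB5* and *ARF1* (AT1G59750) also hold TGTCTC, at 47, 30, 110 and 269 bases, and *TAA1*, *IAA11*, *MP* and *ARF18* hold neither form in this window. TGTCTC was found in 50% of the 8 members at least 1.5-fold higher under the Col-0 label and in 22.4% of all 49. The difference between these shares was not tested.

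Of the 21 auxin response factors, 13 passed the limit. *MP* (*ARF5*; AT1G19850), an activating factor required for embryo and vascular patterning, was at 4.35 and 7.43 FPKM under the Col-0 label and at 6.37 and 6.45 FPKM under the *ali1* label, a ratio of 1.71-fold and 1.01-fold. *ARF18* (AT3G61830), a factor of the repressing class, was at 1.42 and 2.23 FPKM and at 1.82 and 1.83 FPKM. In both genes the acetone group labelled Col-0 was the lowest of 4 and the oxo-C14-HSL group of that label the highest, with the *ali1* groups between them. The same held for *GH3.3*, *IAA11*, *IAA19*, *SHY2* and *TAA1*, but not for *IAA1*, where the acetone group labelled *ali1* was the lowest. All of these loci were picked out by the ratio of the groups labelled Col-0. *ARF4* lay just under the 1.5-fold line, with a log2 difference of 0.56 against the 0.58 of that fold. The most abundant factors were level, *ARF2* at 96.05 and 94.02 FPKM and at 81.58 and 87.73 FPKM, *ARF1* (AT1G59750) at 26.28 and 28.21 FPKM and at 22.70 and 25.76 FPKM, and *ARF10* at 18.09 and 18.64 FPKM and at 18.28 and 17.07 FPKM. *ARF2* and *ARF1* are repressing factors, and *ARF10* is one of those controlled by the microRNA miR160. Across the 13 factors the differences ran from -0.18 to 0.76 under the Col-0 label and from -0.17 to 0.18 under the *ali1* label.

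The 31 members under the limit cannot be compared at these levels, and 11 of them were listed at 0 in all 4 groups. They were *YUC1*, *YUC2*, *YUC3*, *YUC4*, *YUC7*, *YUC9*, *YUC10*, *YUC11* and *TAR1* of synthesis, *GH3.1*, *GH3.4* and *GH3.9* of conjugation, *ILL5* of hydrolysis, *IAA5*, *IAA6*, *IAA15*, *IAA20*, *IAA29*, *IAA30*, *IAA31*, *IAA32* and *IAA33* of the repressors, *ARF12*, *ARF13*, *ARF14*, *ARF15*, *ARF20*, *ARF21*, *ARF22* and *ARF23* of the factors, and *ILR2*. Those listed at 0 were *YUC10*, *YUC11*, *TAR1*, *GH3.4* and the ARF loci 12, 13, 14, 15, 21, 22 and 23. Several of these ARF genes are near-identical copies, so a value of 0 there is uncertain. The remaining loci that match by symbol only were abundant and level. *ARF1* at AT1G23490, an ADP-ribosylation factor of vesicle traffic, was at 245 and 253 FPKM (Col-0 label) and at 265 and 280 FPKM (*ali1* label). *ARF3* at AT2G24765, of the same GTPase family, was at 39.8 and 38.1 FPKM and at 36.6 and 37.3 FPKM. *ILR3*, a bHLH transcription factor of iron homeostasis, was at 93.0 and 84.7 FPKM and at 92.4 and 96.4 FPKM.

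The labels were also set beside each other within each pretreatment. In the acetone groups, 1 of 52 members (1.92%) was at least 1.5-fold higher under the *ali1* label than under the Col-0 label, against 4.28% of all loci. It was *GH3.3*, by 0.93, and 0 were lower, against 1.8%. In the oxo-C14-HSL groups 0 members were higher, against 1.32%, and 3 (5.77%) were lower under the *ali1* label, against 3.94%. They were *GH3.3*, *IAA19* and *IAA1*, with differences of -0.90, -0.68 and -0.67. The members' median was 0.00 in acetone and -0.12 after oxo-C14-HSL, beside -0.04 and -0.02 for all loci. These values rest on levels from separate runs, and they use the same group values as the responses above.

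The difference after oxo-C14-HSL under the Col-0 label depended on the level of a transcript across the whole table, and the members shared in this. Of all loci with a mean from 1 to 5 FPKM, 16.9% were at least 1.5-fold higher, with a median difference of 0.17. From 5 to 20 FPKM these values were 3.93% and -0.01, and from 20 FPKM upwards 1.07% and -0.09. Among members, 4 of 10 were at least 1.5-fold higher in the lowest band (40%), 4 of 29 in the middle band (13.8%) and 0 of 13 in the highest. A running median over mean FPKM (50 bins) was then taken off, the mean here being that of the acetone and oxo-C14-HSL groups compared and not of all groups. After this, 5 of the 52 members were at least 1.5-fold higher, against 4.5% of all loci. They were *GH3.3*, *IAA1*, *IAA11*, *IAA19* and *MP*, all among the 8 named above. *TAA1*, *SHY2* and *ARF18* were no longer past that fold. The members' median was 0.11 after this step, and it was 0.04 over the 42 members with a mean of at least 5 FPKM. The part of this level dependence in the members' values was not tested. Under the *ali1* label the medians of all loci in these bands were 0.00, 0.02 and 0.01, and the shares at least 1.5-fold higher were 2.43%, 0.585% and 0.334%, so that there too the lowest band held the highest share.

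**Figure D3:**
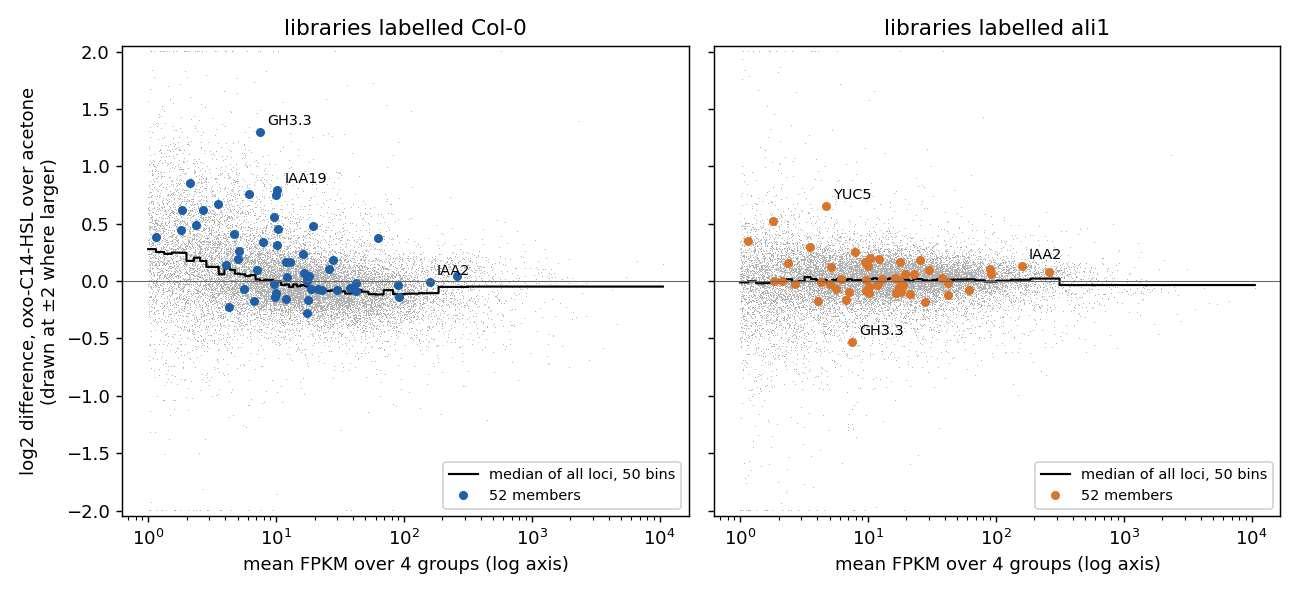
Log2 difference, oxo-C14-HSL over acetone, against the mean FPKM over 4 groups (log axis) for 16846 loci (grey) and the 52 members (coloured), with the median of all loci in 50 bins of equal size (line). Under the Col-0 label the line lies above 0 for the loci of lowest FPKM and below 0 for abundant ones, where it stays near 0 under the *ali1* label. *GH3.3* lies at 1.30 in the left panel and at -0.53 in the right one.

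Some members lie next to each other in the genome, and 4 pairs above 1 FPKM were within 20 kb. *SHY2* and *AXR3*, divergent genes with 6388 bases between them on chromosome 1, were both higher after oxo-C14-HSL under the Col-0 label, by 0.67 and 0.46. *IAA14* and *IAA1*, divergent genes with 10732 bases between them on chromosome 4, differed, with 0.10 for *IAA14* and 0.75 for *IAA1*. *IAA2* and *IAA7* on chromosome 3 were both level, with -0.01 each, as were the tandem genes *ILL1* and *ILL2* on chromosome 5, 444 bases apart, with 0.00 and -0.11. Neighbouring genes of 1 family can share reads where their sequences are near-identical, and the setting with which the authors counted such reads is unknown here. Loci that hold a further named gene, those of *ARF19*, *IAA10*, *IAA34* and *ILL3*, cannot be split. The assembled loci of *SHY2*, *IAA11* and *MP* were over 500 bp longer than the reference gene, so that reads from outside the gene may be in their values. Without the member loci of that kind, 40 remained and 5 of them were at least 1.5-fold higher under the Col-0 label (*ARF18*, *GH3.3*, *IAA1*, *IAA19* and *TAA1*). The share of all loci past that fold, 6.39%, was counted without regard to the length of the locus.

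Other genes of the auxin pathway were read as 4 lists with 44 genes, 36 of them above 1 FPKM. *ACS4*, an auxin-induced enzyme of ethylene synthesis, passed that limit only through the group in which it was high. It was at 0.44 and 2.68 FPKM (Col-0 label) and at 0.81 and 0.50 FPKM (*ali1* label), and it is left out of the counts that follow. No member of the auxin families was of this kind. Of the other 35 genes, 4 (*TMO6*, *HB-8*, *CYP79B2* and *DAO2*) were at least 1.5-fold higher and 0 lower after oxo-C14-HSL under the Col-0 label, against 6.39% and 1.68% of all loci. Under the *ali1* label 0 were higher and 2 lower (*ASA1* and *NIT2*), against 0.991% and 2.12%. Auxin targets outside the families had a median difference of 0.44 under the Col-0 label, with 7 of 7 above 0, against 46.8% of all loci. Under the *ali1* label their median was -0.32, with 3 of 7 above 0, against 53.2%. Of these targets, *LBD16*, *HB-2* and *PID* had means of 2.54, 3.10 and 2.32 FPKM. Of all loci with a mean from 1 to 5 FPKM, 68.1% were above 0 under the Col-0 label. *TMO6* and *HB-8*, targets of *MP* in vascular tissue, were at 5.85 and 10.86 FPKM and at 6.24 and 9.44 FPKM under the Col-0 label, and at 7.40 and 8.24 FPKM and at 7.51 and 8.47 FPKM under the *ali1* label. A mixed list of tryptophan and indole steps had medians of -0.03 (Col-0 label) and -0.37 (*ali1* label, 2 of 12 above 0, against 53.2% of all loci). Its genes of tryptophan synthesis (*ASA1*, *ASB1*, *TSA1*, *TSB1* and *TSB2*) ran from -0.10 to 0.43 under the Col-0 label and from -0.74 to -0.39 under the *ali1* label. The other genes of the list ran from -0.63 (*NIT2*) to 0.03 (*AMI1*) under the *ali1* label. *ASA1*, the first enzyme of tryptophan synthesis, was at 64.1 and 79.3 FPKM and at 89.4 and 53.5 FPKM. *CYP79B2*, which leads from tryptophan to indole-3-acetaldoxime, was at 54.6 and 89.9 FPKM and at 124 and 96.9 FPKM, in a locus shared with other genes. The loci of *ASB1*, *TSA1* and *AMI1*, and that of *SKP1* in the receptor complex, also hold a further gene, so their own shares are unknown. A mixed list of inactivating enzymes (*DAO1*, *DAO2* and *UGT74D1*) and the hydrolase *IAR3*, which releases auxin, had medians of 0.12 and -0.17 over 4 genes. *IAR3* had log2 differences of 0.24 and -0.28, and *DAO2*, a relative of the auxin oxidase *DAO1*, was at 1.79 and 3.29 FPKM under the Col-0 label, with log2 differences of 0.84 and -0.05. Subunits of the receptor complex and co-repressors were level, with medians of -0.10 and 0.02 over 12 genes.

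Markers of cell types in a seedling were read beside these values. Under the Col-0 label 5 of the 6 root genes above 1 FPKM were above 0, against 46.8% of all loci, with a median difference of 0.31. Under the *ali1* label 3 were above 0, against 53.2%, with a median of -0.01. Summed over 13 root genes the levels were 458 and 597 FPKM under the Col-0 label and 507 and 523 FPKM under the *ali1* label, but most of this sum was *BGLU23* (*PYK10*), a root glucosidase, with 371 and 505 FPKM and with 391 and 405 FPKM. Of the 6 root genes above 1 FPKM, *CASP1* of the endodermis was lower after oxo-C14-HSL under the Col-0 label and higher under the *ali1* label (log2 differences of -0.54 and 0.76), *NRT2.1* had the opposite order (0.61 and -1.28), and *SCR* was level (0.00 and -0.09). *PHT1;1* (0.21 and 0.05) and *SHR* (0.41 and -0.06) were the other two. The root-hair genes *COBL9*, *PRP3* and *EXPA7* stayed under 0.28 FPKM in every group. Summed over 4 genes of dividing cells the levels were 3.82 and 7.27 FPKM and then 3.95 and 4.94 FPKM, highest in the oxo-C14-HSL group labelled Col-0. Only 2 of these 4 were above 1 FPKM, and most of the sum was *CDKB2;1*, at 2.61 and 4.42 FPKM and then 2.63 and 3.46 FPKM. Over 4 genes of the shoot apex the sums were 6.83 and 8.04 FPKM and then 7.44 and 8.73 FPKM. Only 1 of them, *KNAT1*, was above 1 FPKM, at 6.48 and 7.28 FPKM and then 6.83 and 8.01 FPKM. The 6 green leaf genes summed to 21669 and 23622 FPKM and then to 22405 and 20917 FPKM. Of the 27 markers 0 were at 0 in all groups and 15 were above 1 FPKM, among them *CYCB1;2*, a cyclin that passed only through the group in which it was high (0.77 and 1.69 FPKM, then 0.75 and 0.95 FPKM). Of the other 14, 2 (*NRT2.1* and *CDKB2;1*) were at least 1.5-fold higher and 0 lower under the Col-0 label, against 6.39% and 1.68% of all loci. Under the *ali1* label 1 (*CASP1*) was higher and 1 (*NRT2.1*) lower, against 0.991% and 2.12%. The part of root tissue and of dividing cells in the auxin transcripts was not tested.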

How the data were processed

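Single-end reads of 100 bp (DNBseq) from 12 libraries were aligned by the authors with RNAStar, and transcripts were assembled and merged with Cufflinks 2.2.1.0 and compared by Cuffdiff 2.2.1.5, once per genotype. The submitters' processing notes name TAIR10. Not given in the sources used here are the strand setting, the normalization and the annotation release. The deposited FPKM values are 1 per group, pooled by the authors over 3 libraries. The tables also hold the authors' own fold changes, test statistics, p-values and q-values, which were neither used nor compared. The 44 loci of the table labelled *ali1* with the status HIDATA (too many fragments at the locus) were left out. No counts are given, so depth is unknown.

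Samples were grouped by their titles. Members were found by symbol, and all 83 were matched to RefSeq TAIR10.1, from which coordinates and promoters were taken, all 7 sequence names being those of the files. Members, lists and promoter motifs were chosen with earlier results of these data known. Differences were log2(FPKM + 0.1) and understate those of low genes. Named were the members past 1.5-fold under either label or with responses 1 apart, the 3 most abundant of each role, and those the membership rule gives by symbol, 29 in all, and any other named gene was chosen after its values were seen. The computation, tested on simulated data, used Python 3.11.15, numpy 2.4.6, pandas 2.3.3 and matplotlib 3.10.9. Alternatives changed the pseudocount, the filter, the fold, the centring and the set of loci.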

Additional observations from a re-analysis of the deposited data

How the results depend on the processing

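No paired analysis was possible because the tables hold 1 pooled value per group, and for the same reason the planned fits with a replicate block and without each replicate were not run. The count of members at least 2-fold higher under the Col-0 label was 1. It became 6 of 83 without the filter on low values, through *GH3.1*, *IAA5*, *IAA6*, *IAA30* and *IAA33*, all under 1 FPKM, and 8 at a fold of 1.5. It became 3 of 60, against 1.61% of all loci, with family genes filed under other symbols, an alternative chosen after seeing the data. Under the *ali1* label the count of members at least 2-fold higher went from 0 to 1 at a fold of 1.5, and that of members at least 2-fold lower went from 0 to 2 without the filter (*IAA20* and *IAA33*, under 1 FPKM). No share of all loci was counted without the filter, so the counts made without it are not read as results about the members. The median of the members ranged from 0.04 (mean of at least 5 FPKM) to 0.14 under the Col-0 label and from -0.01 to 0.01 under the *ali1* label in the alternatives run. Of the 8 members at 1.5-fold, 5 remained with a pseudocount of 1 FPKM (*GH3.3*, *IAA1*, *IAA11*, *IAA19* and *MP*) and 4 at a mean of at least 5 FPKM. With that pseudocount *YUC5* was at 0.55 under the *ali1* label, under the 1.5-fold line. Of the 29 named members, 7 moved by at least 0.1 under the Col-0 label with a pseudocount of 1 FPKM and 0 changed sign, and 9 moved with the running median taken off, where 4 of the 29 changed sign (*AFB3*, *IAA2*, *ARF2* and *ARF3* at AT2G24765). Leaving *ACS4* and *CYCB1;2* out of the lists of other genes was also chosen after seeing the data. Without depth or libraries, the error of low values cannot be given.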

Other observations

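Relatives of these families that the table files under older names were left out by the choice of symbols, and 8 were found through the reference synonyms, all above 1 FPKM. *GRH1* (*AFB1*), an auxin receptor, was at 0.89 FPKM (acetone) and 2.12 FPKM (oxo-C14-HSL) under the Col-0 label and at 1.40 and 1.27 FPKM under the *ali1* label. Its log2 difference of 1.17 under the Col-0 label lies outside the range of the other 5 receptors. *PAP2* (*IAA27*), an Aux/IAA repressor, was at 3.01 and 5.54 FPKM and at 5.05 and 4.84 FPKM, with the acetone group labelled Col-0 as the lowest of 4, as for *MP*, *GH3.3* and others. *PBS3* (*GH3.12*), a member of the GH3 family that acts in salicylic acid synthesis and not on auxin, was at 0.67 and 3.27 FPKM and at 3.65 and 3.83 FPKM. For this gene the group that stands apart is the acetone group labelled Col-0, whereas for *IAA19* and *IAA1* it is the oxo-C14-HSL group. The other 5, *ETT* (*ARF3*), *PAP1* (*IAA26*), *BRU6* (*GH3.2*), *NPH4* (*ARF7*) and *ATAUX2-11* (*IAA4*), had log2 differences from -0.10 to 0.28 under the Col-0 label and from -0.40 to 0.06 under the *ali1* label. *BRU6*, which like *GH3.3* conjugates auxin, was at 7.09 and 6.92 FPKM and at 7.69 and 5.82 FPKM, lower after oxo-C14-HSL under both labels. The value of *ETT* comes from a locus shared with AT2G33855. These genes were chosen after their values were seen.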
